A study of Mus musculus with 2 samples.

Results

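The cathepsins, the subunits and accessory proteins of the vacuolar ATPase (V-ATPase) and the lysosome-associated membrane proteins (LAMPs) were examined in poly(A) RNA sequencing of the mouse small intestine. The genes were taken by symbol: protein-coding genes named as a cathepsin (Cts and a letter), a V-ATPase subunit (Atp6v), a V-ATPase accessory protein (Atp6ap) or a numbered LAMP. The rule found 48 genes among the 43346 Ensembl genes in the deposited tables, of which 21474 were protein-coding. They were 18 cathepsins, 26 V-ATPase genes and 4 LAMP genes. The tissue came from 1 female C57BL/6J mouse aged 10 weeks, for which the labels name no treatment, and no condition was compared. The labels give 1 biological replicate and 2 technical libraries, called the first and the second library here after their technical replicate numbers. The second was made later, in 2015, and the labels do not say whether 1 RNA preparation served both. Each pair of values names the first library before the second, and with n = 2 technical libraries from 1 mouse nothing here measures how mice vary.

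Lysosomes break down proteins, lipids and sugars that reach them by endocytosis and autophagy. The V-ATPase is a rotary proton pump whose cytosolic V1 sector hydrolyses ATP and whose membrane V0 sector carries protons into the lumen. The acid it makes activates the cathepsins, proteases of the cysteine, aspartic and serine classes. LAMP1 and LAMP2 are heavily glycosylated proteins that line the inner face of the lysosomal membrane. In the intestine these genes are active in absorptive enterocytes and in the macrophages, dendritic cells and lymphocytes of the mucosa, where cathepsins also process antigens.

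The libraries held 28277875 and 24509862 expected counts, the estimated read counts per gene, and where a gene has 0 counts, levels up to 0.106 and 0.122 CPM (3 counts of the total) remain possible. Mitochondrial genes and their nuclear copies took 72.3% and 21.6% of TPM (transcript abundance scaled for length and library), which lowered the TPM of all other genes in the first library. Ratios between libraries were therefore taken on counts scaled by TMM factors, and a gene with similar TPM in both libraries can be lower in the second on that scale. A gene is called higher in 1 library where an exact binomial test of the scaled counts gave an adjusted p under 0.05 and the difference was 2-fold or more. That test compares these 2 libraries and covers counting error only. Ratios also followed the GC content of the transcripts, and most values after removal of that trend are given once the genes have been described. All 6 enterocyte markers (Vil1, Sis, Fabp2, Cdh17, Lct, Anpep) were at 1 TPM or more in both libraries, with a summed level of 6589 and 10020 TPM. Bulk tissue RNA cannot tell fewer cells of a type from less RNA per cell.

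Of the 48 genes, 28 reached 1 TPM in both libraries. A further 5 reached it in the second library only (Ctse, Ctsf, Ctsk, Ctsw and Atp6v1g2), and none in the first only. Of all 21474 protein-coding genes, 3897 reached it in the second library only and 140 in the first only, so this lean was not particular to these genes. The remaining 15 stayed below 1 TPM in both, and 10 of these had 0 counts in both. The 48 genes together held 0.0995% and 0.2835% of all TPM. With mitochondrial genes and copies left out of the sum these shares became 0.360% and 0.362%. On TPM, which depends on estimated lengths, the totals were thus nearly equal once the mitochondrial part was removed, while single genes differed widely. Of all expected counts the 48 genes held 0.199% and 0.379%. Mitochondrial genes and copies held 41.9% and 9.68% of those counts.

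**Figure D1:**
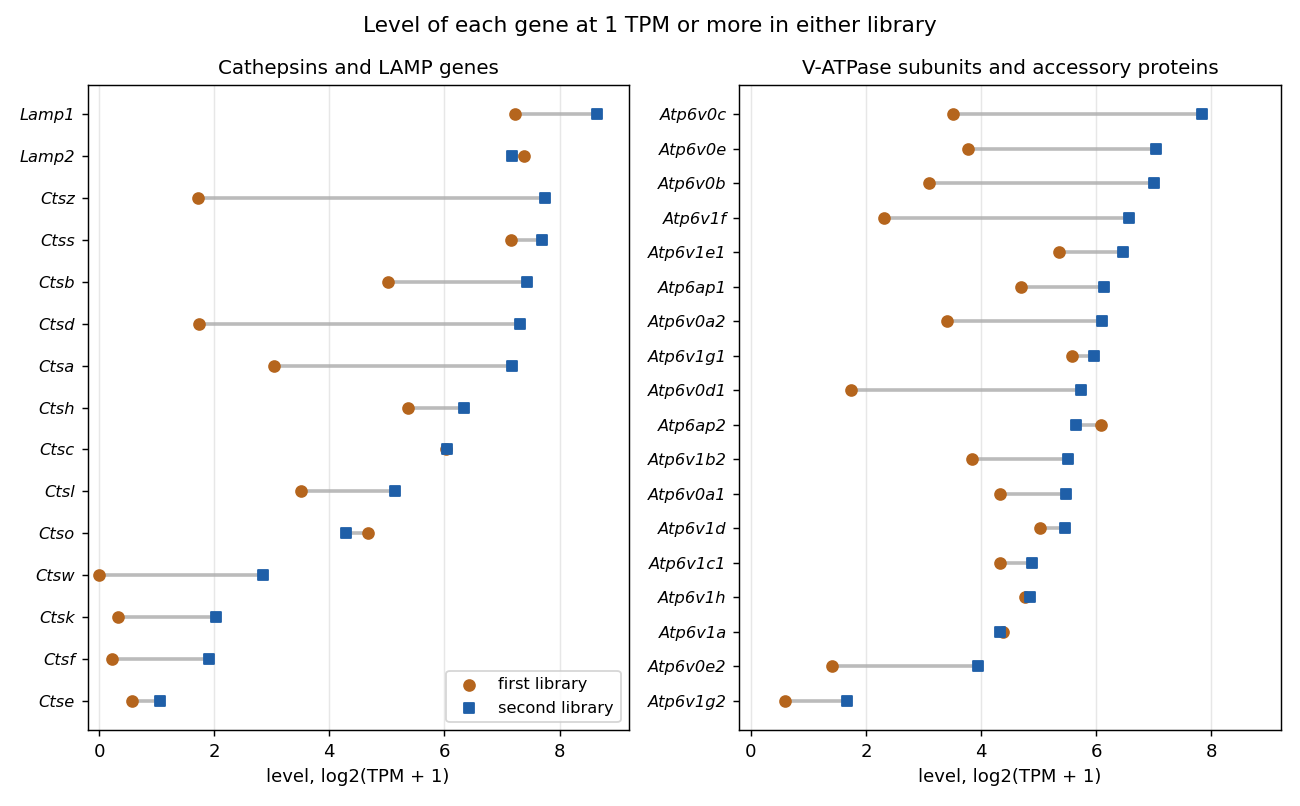
Level of each cathepsin, LAMP and V-ATPase gene that reached 1 TPM in either library, as log2(TPM + 1), in the first library (circles) and the second (squares). Lamp1, Lamp2 and Ctss were high in both libraries, while Ctsz, Ctsd and Ctsa were low in the first library and among the highest in the second.

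The LAMP family was represented by 2 genes. Lamp1 stood at 148.8 and 399.1 TPM and Lamp2 at 165.0 and 144.0 TPM. Lamp2 was thus the most abundant of the 48 genes in the first library and Lamp1 the most abundant in the second. On scaled counts Lamp1 differed little (9093 and 15610 counts, log2 ratio of the second over the first 0.15 ± 0.02, counting SE, adjusted p 1.46e-14 in the exact binomial test, under the 2-fold limit). Lamp2 was higher in the first library (12300 and 5800 counts, log2 ratio -1.72 ± 0.02). Lamp3, a LAMP of mature dendritic cells and lung epithelium, had 7 and 2 counts, and Lamp5, a LAMP of neurons and plasmacytoid dendritic cells, had 0 in both.

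Lamp2 (chrX:38401357-38456454, minus strand, mm10) makes 3 proteins that share the luminal part and differ in the membrane span and cytosolic tail. Each uses its own last coding exon, shown here to the stop codon because the counts divide among the isoforms at these exons. Lamp2-201 is LAMP2A, the receptor of chaperone-mediated autophagy, Lamp2-202 is LAMP2B and Lamp2-203 is LAMP2C. The exons lie at chrX:38405432-38405571, chrX:38421712-38421851 and chrX:38402139-38402281, all on the minus strand. Capitals mark the last 4 sense codons, the tyrosine-based signal that sorts the protein to lysosomes.
Lamp2-201: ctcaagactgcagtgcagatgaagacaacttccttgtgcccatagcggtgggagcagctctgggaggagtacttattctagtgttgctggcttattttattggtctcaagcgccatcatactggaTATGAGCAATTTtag
Lamp2-202: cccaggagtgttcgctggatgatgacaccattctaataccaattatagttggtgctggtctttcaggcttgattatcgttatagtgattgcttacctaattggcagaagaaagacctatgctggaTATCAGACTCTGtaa
Lamp2-203: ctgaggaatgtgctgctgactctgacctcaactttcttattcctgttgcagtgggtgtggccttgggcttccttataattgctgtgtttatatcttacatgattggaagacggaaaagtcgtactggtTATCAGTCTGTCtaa

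LAMP2A stood at 79.2 and 99.5 TPM and LAMP2B at 83.7 and 42.2 TPM. LAMP2A held 47.98% and 69.1% of the gene's TPM, so the leading isoform was LAMP2B in the first library and LAMP2A in the second. LAMP2C, at 1.38 and 1.69 TPM, was a minor form in both. The isoform shares are estimates that divide shared reads, and they have no replicate check. The LAMP2B transcript (38.7% GC, 3604 bases) was poorer in G and C and longer than the LAMP2A transcript (42.5%, 1769 bases).

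The V1 sector has 13 genes under the rule without the neighbouring gene Atp6v1fnb, and 8 reached 1 TPM in both libraries. Its catalytic A subunit and its B subunit, which both bind ATP, were present. Atp6v1a, the A subunit, stood at 19.9 and 19.2 TPM (2381 and 1436 counts) and was higher in the first library on scaled counts (log2 ratio -1.36 ± 0.05, adjusted p 2.98e-182). Atp6v1b2, the widely expressed B subunit, stood at 13.3 and 44.3 TPM (935 and 2142 counts) and differed by less than 2-fold (log2 ratio 0.56 ± 0.06). The A and B subunits are present in equal numbers in the pump, but the level of the A subunit was the higher in the first library and that of the B subunit in the second.

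The peripheral stalk subunits C, E and G and the central stalk subunit D were present in both libraries. Atp6v1g1 stood at 46.7 and 61.0 TPM, Atp6v1e1 at 40.0 and 87.3, Atp6v1d at 31.3 and 42.6 and Atp6v1c1 at 19.0 and 28.7. None of these 4 differed by 2-fold on scaled counts, with log2 ratios from -0.88 (Atp6v1g1) to -0.14 (Atp6v1e1). Atp6v1h, the regulatory H subunit, stood at 26.2 and 27.9 TPM and was higher in the first library on scaled counts (1324 and 957 counts, log2 ratio -1.10 ± 0.06, adjusted p 6.52e-73). Atp6v1f, the small F subunit of the central stalk, stood apart at 3.95 and 93.4 TPM (60 and 926 counts, log2 ratio 3.30 ± 0.19, adjusted p 2.26e-127). On scaled counts it was the only one of the 9 V1 genes tested that was called higher in the second library, against 40.2% of all genes tested. Its GC content was 54.7%, and without the trend with GC content across all genes its log2 ratio was 0.74, under 2-fold. The 1 V1 gene called higher in the second library was then Atp6v1b2 (1.17), against 17.5% of all genes. With GC content weighted by the counts of each transcript, Atp6v1b2 was not called (log2 ratio -0.02).

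The V0 sector differed more between the libraries: its 9 genes summed to 63.4 and 661.8 TPM, against 200.8 and 406.7 TPM for V1. On scaled counts the second library was the higher for each of the 7 V0 genes tested. Only 3 were after removal of the trend with GC content across all genes, where Atp6v0c turned to higher in the first. With GC content weighted by the counts of each transcript, Atp6v0c was not called (log2 ratio -0.415). Over all genes tested 40.2% were called in favour of the second library before that removal and 17.5% after it, and the median GC content of the V0 genes was 52.7%, in a range where genes at large leaned to the second library. The proteolipid c, the ring that turns in the membrane, is made by Atp6v0c (chr17:24163866-24169702, minus strand), which stood at 10.4 and 226.7 TPM (337 and 4314 counts, log2 ratio 3.04 ± 0.08). Atp6v0b, the related c'' subunit, stood at 7.49 and 126.8 TPM (100 and 1802 counts, log2 ratio 3.53 ± 0.15). Atp6v0d1, which joins the ring to the central stalk, stood at 2.32 and 52.1 TPM (99 and 1385 counts, log2 ratio 3.17 ± 0.15, adjusted p 1.09e-182). These 3 genes were the V0 genes with the highest ratios. The count of Atp6v0c is uncertain because a processed pseudogene, Atp6v0c-ps2, can share its reads.

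The a subunit holds the path of protons through the membrane and has 4 paralogs. Atp6v0a1 stood at 19.2 and 43.5 TPM (log2 ratio 1.45 ± 0.07) and Atp6v0a2 at 9.54 and 67.3 TPM (log2 ratio 1.54 ± 0.06). Atp6v0a4, the form of acid-secreting kidney and epididymal cells, had 2 and 1 counts. The a3 subunit Tcirg1, the form of osteoclasts and immune cells, has a symbol outside the rule and had 4 and 1364 counts. Tcirg1 thus made up 0.291% of the counts of the 4 paralogs in the first library (95% exact binomial interval 0.0794 to 0.744) and 18.5% in the second (17.6 to 19.4). On TPM, which allows for length, its shares were 1.68% and 26.0%, beside 65.6% and 29.0% for Atp6v0a1 and 32.7% and 44.9% for Atp6v0a2. On counts Atp6v0a2 was ahead of Atp6v0a1 in both libraries, with 58.2% and 48.8% against 41.4% and 32.7%. The order in the first library thus depends on the length estimated for Atp6v0a1, which was 1192 bases there and 3126 in the second. The intervals cover counting error only. Tcirg1 is also richer in G and C (58.0%) than Atp6v0a1 (49.7%) and Atp6v0a2 (50.8%). Without the trend of ratios with GC content its log2 ratio of 7.6 became 3.3, and the shares are not corrected for that trend.

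For the other subunits with tissue-restricted paralogs, the widely expressed form held nearly all of the TPM. Atp6v1b2, Atp6v1c1 and Atp6v1e1 each held 99.8% or more of the TPM of their subunit in both libraries, as Atp6v1b1 had 0 and 1 counts, Atp6v1c2 had 0 and 1, and Atp6v1e2 had 0 in both. Atp6v0d1 held 96.3% and 99.8% against Atp6v0d2 (6 and 4 counts), a form known from osteoclasts and macrophages. Atp6v1g1 held 98.9% and 96.6% against the neuronal form Atp6v1g2 (0.51 and 2.17 TPM), while Atp6v1g3 had 0 counts. The e subunit was more mixed. Atp6v0e stood at 12.7 and 130.7 TPM (log2 ratio 1.88 ± 0.09) and Atp6v0e2 at 1.67 and 14.4 TPM (log2 ratio 1.83 ± 0.17), and Atp6v0e held 88.4% and 90.05% of their TPM. The proportions between these 2 genes were similar in both libraries, although both were higher in the second.

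Among the accessory proteins, Atp6ap2, also known as the prorenin receptor, stood at 67.1 and 49.0 TPM and was higher in the first library on scaled counts (4240 and 1981 counts, log2 ratio -1.73 ± 0.04). Atp6ap1, which takes part in assembly of the V0 sector, stood at 24.8 and 69.5 TPM and differed by less than 2-fold (log2 ratio 0.15 ± 0.05, adjusted p 0.0021). Atp6ap1l, a relative of Atp6ap1, and Atp6v1fnb, a gene beside Atp6v1f, had 0 counts in both libraries.

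**Figure D2:**
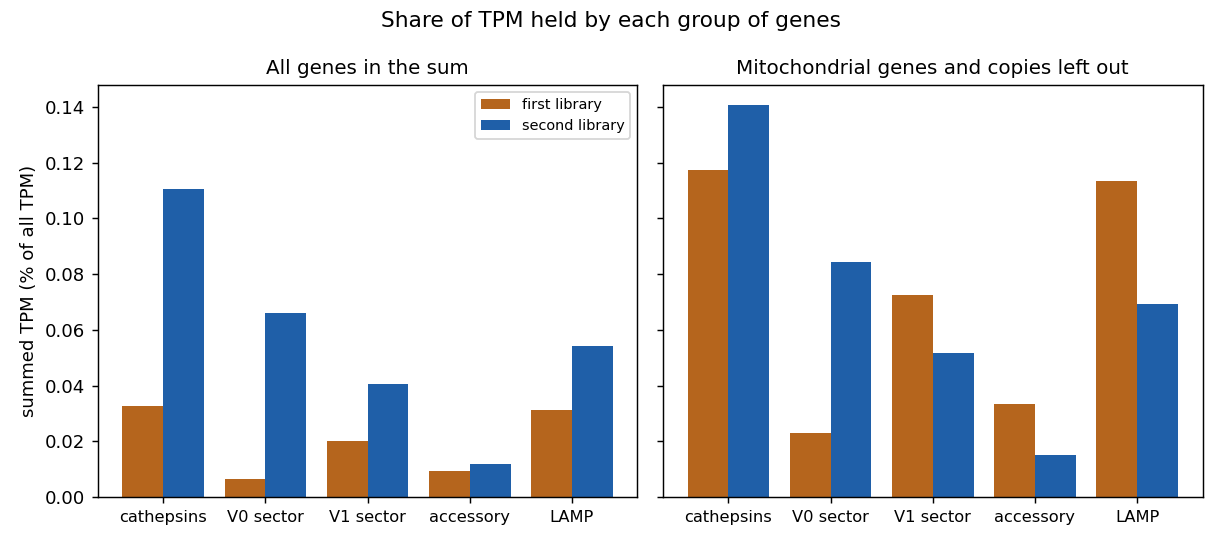
Summed TPM of the cathepsins, the V0 and V1 sectors, the accessory proteins and the LAMP genes as percent of all TPM in each library, with all genes in the sum (left) and without mitochondrial genes and copies (right). The V0 sector was higher in the second library in both panels, at 0.0229% and 0.0844% in the right panel, while for V1, the accessory proteins and the LAMP genes the first library had the larger share in the right panel only.

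Of the 18 cathepsins, 9 reached 1 TPM in both libraries, and the most abundant gene was not the same in each. The cysteine cathepsin Ctss, which trims the invariant chain of MHC class II in antigen-presenting cells, led in the first library with 141.7 TPM and stood at 205.2 TPM in the second. Its scaled counts differed by less than 2-fold (4888 and 4549 counts, log2 ratio -0.74 ± 0.03). Ctsz, a carboxypeptidase of the same class (chr2:174427493-174439039, minus strand), stood at 2.30 and 214.4 TPM and led in the second. It had 85 and 5101 counts (log2 ratio 5.27 ± 0.16). Among genes at 1 TPM or more, Ctsz thus ranked above 21.01% in the first library and above 95.7% in the second.

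Ctsd, the main aspartic protease of lysosomes (chr7:142375911-142388038, minus strand), had the highest log2 ratio of scaled counts among genes with counts in both libraries, within counting error of Ctsz. It stood at 2.34 and 157.2 TPM (89 and 5750 counts, log2 ratio 5.37 ± 0.15). Ctsa, a serine carboxypeptidase that also protects beta-galactosidase and neuraminidase (chr2:164832873-164841032, plus strand), stood at 7.21 and 143.4 TPM (144 and 4179 counts, log2 ratio 4.22 ± 0.12). Ctsb, a cysteine cathepsin with endopeptidase and carboxypeptidase activity (chr14:63122462-63145923, plus strand), stood at 31.3 and 172.5 TPM (4209 and 14820 counts, log2 ratio 1.18 ± 0.03). All 3 were higher in the second library, Ctsb by far the least.

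Ctsc and Ctso went the other way. Ctsc, the dipeptidyl peptidase that activates granzymes, stood at 64.0 and 65.3 TPM (4528 and 2775 counts, log2 ratio -1.34 ± 0.03). Ctso, a little-studied cysteine cathepsin, stood at 24.6 and 18.6 TPM (2302 and 1049 counts, log2 ratio -1.77 ± 0.05, adjusted p 1.47e-259). Both were higher in the first library on scaled counts. Ctsh, an aminopeptidase, stood at 40.4 and 80.2 TPM and Ctsl, a broad endopeptidase of lysosomes, at 10.4 and 34.4 TPM. Neither differed by 2-fold on scaled counts, with log2 ratios of 0.60 ± 0.06 and 0.45 ± 0.07.

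Another 4 cathepsins reached 1 TPM in the second library only. Ctsw, the cathepsin of natural killer and cytotoxic T cells (chr19:5465043-5468507, minus strand), had 0 and 123 counts (0 and 6.19 TPM) so the second library exceeded the first at least 26.4-fold, computed against 3 counts in the first. The sum of 8 cytotoxic lymphocyte markers moved less, from 172.6 to 288.3 TPM, and the most abundant of them, Gzma, stood at 130.9 and 130.6 TPM. Other markers of these cells followed Ctsw more closely: Nkg7 had 2 and 114 counts (log2 ratio 4.88, 3.21 without the GC trend) and Ccl5 had 43 and 578 (3.10 and 1.38). Klrd1 went the other way (231 and 69 counts, -2.37 and 0.07), as did Gzma (-1.26 and -0.06), and Gzmb, Cd8a and Cd3e were not called. Of the 7 markers tested, 2 were called in favour of each library, against 40.2% and 27.4% of all genes. Without the GC trend they were 2 and 0, against 17.5% and 17.4%. The part of these cells in the result of Ctsw was not tested. Ctsk, the collagenase of osteoclasts, had 10 and 76 counts (0.26 and 3.09 TPM, log2 ratio 2.23 ± 0.47, adjusted p 4.1e-08). Of 5 osteoclast markers, Calcr had 0 counts in both libraries, Oscar had 1 and 0 and Dcstamp had 2 and 1. Acp5 (45 and 3453 counts, log2 ratio 5.61) and Ocstamp (14 and 89, log2 ratio 1.99) were higher in the second library, as Ctsk was. Without the GC trend Acp5 (2.69) and Ctsk (2.34) were still called, and Ocstamp (0.10) was not. Ctsf, a widely expressed cysteine cathepsin, had 9 and 94 counts (0.17 and 2.78 TPM, log2 ratio 2.68 ± 0.49, adjusted p 9.8e-12). Ctse, an aspartic protease of stomach and immune cells, had 24 and 40 counts and did not pass the test (log2 ratio 0.09 ± 0.37, adjusted p 0.90).

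The other 5 cathepsins under the rule had 0 counts in both libraries. They were Ctsg, the serine protease of neutrophil granules, and Ctsj, Ctsm, Ctsq and Ctsr, members of the placental cathepsin cluster on chromosome 13. Of 6 neutrophil markers, Mpo, Elane and Ly6g also had 0 counts, while Prtn3 had 0 and 7, S100a8 had 0 and 3 and S100a9 had 1 and 3. All 4 placental trophoblast markers (Tpbpa, Prl3b1, Psg21, Prl2c2) had 0 counts. Another 5 cathepsin-like genes whose symbols fall outside the rule (Cts3, Cts6, Cts7, Cts8 and Ctsll3) had 0 counts as well.

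Over all tested genes of the tissue, 40.2% were called in favour of the second library and 27.4% of the first (6101 and 4160 of 15194). Of the 48 genes, 33 had enough counts to test. Against that background, the second library was the higher for 15 of the 33 and the first for 6, and 12 stayed under a 2-fold difference. The median log2 ratio was 0.60 over the 33 and 0.26 over all genes tested, and it was the same with Ctsw set to its bound. Among 13 cathepsins tested, 7 were the higher in the second and 2 in the first, and among 18 V-ATPase genes, 8 and 3. Only genes with 20 or more counts were tested, so a gene could enter through its higher library alone, and the counts are a description.

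The ratio of a gene followed the base composition of its transcripts. Across the 33 genes, log2 ratio and GC content had a Pearson r of 0.81 and a Spearman rho of 0.83, and across 15127 nuclear genes 0.80 and 0.86. These are correlations across genes of the same 2 libraries, and genes are not independent replicates. Of the 9 genes at 54% GC or more, 8 were higher in the second library, among them Ctsd, Ctsz, Ctsa, Ctsw, Atp6v0b and Atp6v0c. The median log2 ratio of the 9 was 3.53, against 3.83 for the 4498 nuclear genes tested in that range. Of the 6 genes below 45% GC, 4 were higher in the first library (Lamp2, Atp6ap2, Ctsc and Ctso) and none in the second. Nuclear genes at large had medians of -2.05 below 42% GC and -1.47 from 42% to 45%, against -1.72 and -1.34 here.

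**Figure D3:**
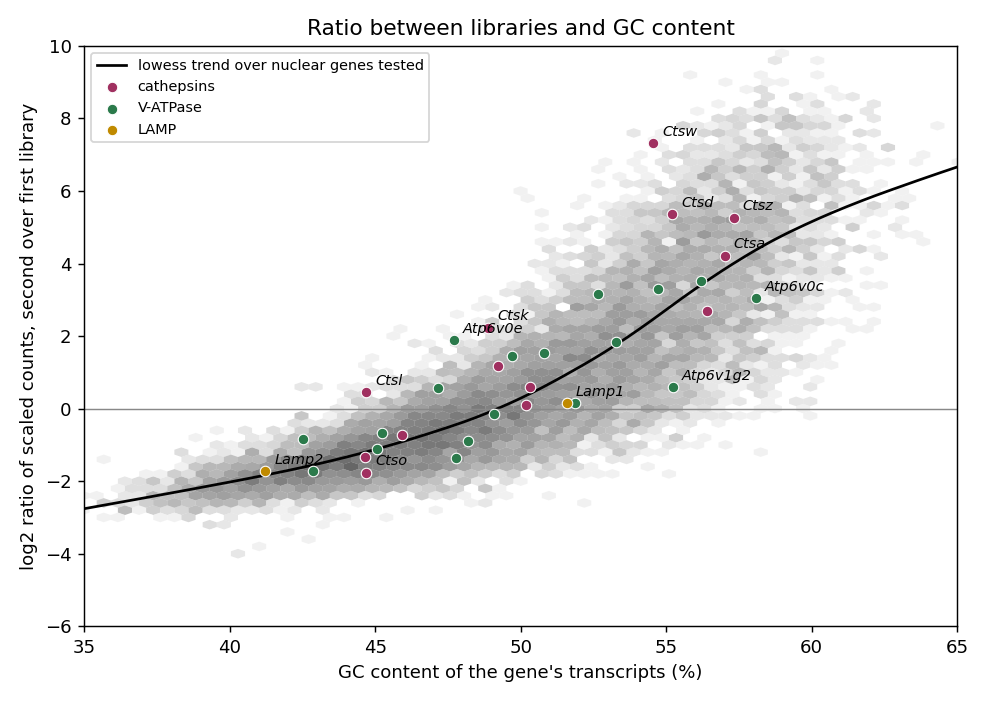
Log2 ratio of scaled counts (second over first library) against GC content for the 33 genes tested (coloured by family), over the density of all nuclear genes tested (grey) and their lowess trend (line). The coloured points tend to climb with GC content, which runs from 41.2% (Lamp2) to 58.1% (Atp6v0c). Lamp2, Ctsa and Atp6v0b lie near the trend, and Ctsd, Ctsz, Ctsk, Atp6v0e and Ctsl lie above it. Atp6v0c and Atp6v1g2 lie below it. The point of Ctsw, which had 0 counts in the first library, depends on the prior count.

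Removing that trend left fewer differences. Over all genes 17.5% were then called in favour of the second library and 17.4% of the first (2653 and 2636 of 15151), and of the 33 genes 10 and 2. The median log2 ratio became 0.17 over the 33 genes and -0.01 over all genes. The genes higher in the second library after removal were the cathepsins Ctsw, Ctsd, Ctsk, Ctsl, Ctsz and Ctsb and the V-ATPase subunits Atp6v0e, Atp6v0d1, Atp6v0a1 and Atp6v1b2. Ctsd kept a log2 ratio of 2.53 (adjusted p 4.8e-112), Ctsk 2.34 (adjusted p 1.1e-08) and Atp6v0e 2.35 (adjusted p 2.5e-186). The library difference in these 3 genes was thus larger than the trend at their GC content, although for Atp6v0e the value depended on how that content was computed (1.36 and 1.69 in the further fits described next). The 2 genes higher in the first library were Atp6v0c (log2 ratio -1.33) and Atp6v1g2 (log2 ratio -2.27), both on the other side before removal. Atp6v1g2 was also called in the further fits, but Atp6v0c was not with GC content weighted by transcript counts (-0.415).

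Several of the large differences shrank to below 2-fold. Ctsa went from 4.22 to 0.37, Atp6v0b from 3.53 to 0.13, Atp6v1f from 3.30 to 0.74 and Lamp2 from -1.72 to 0.12. All 6 genes higher in the first library before removal (Lamp2, Atp6ap2, Ctsc, Ctso, Atp6v1a and Atp6v1h) differed by less than 2-fold after it. Of the 7 V0 genes, Atp6v0a1, Atp6v0d1 and Atp6v0e were still higher in the second library. A further 2 fits, chosen after seeing the data, weighted GC content by the counts of each transcript or added gene length. With the scaled counts before removal included, 4 sets of ratios were compared. The 6 genes higher in the second library in all 4 were Ctsb, Ctsd, Ctsk, Ctsw, Atp6v0d1 and Atp6v0e. No gene was higher in the first library in all 4. In each fit that removed the GC trend, Ctsl was also called higher in the second library (1.64, 1.56 and 1.54). Atp6v1g2 was called higher in the first in each of those fits (-2.27, -1.15 and -2.58). Ctsz fell to 0.96, under the 2-fold limit, with length added. With weighted GC content Atp6v0a1 fell to 0.26 and Atp6v1b2 to -0.02.

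**Figure D4:**
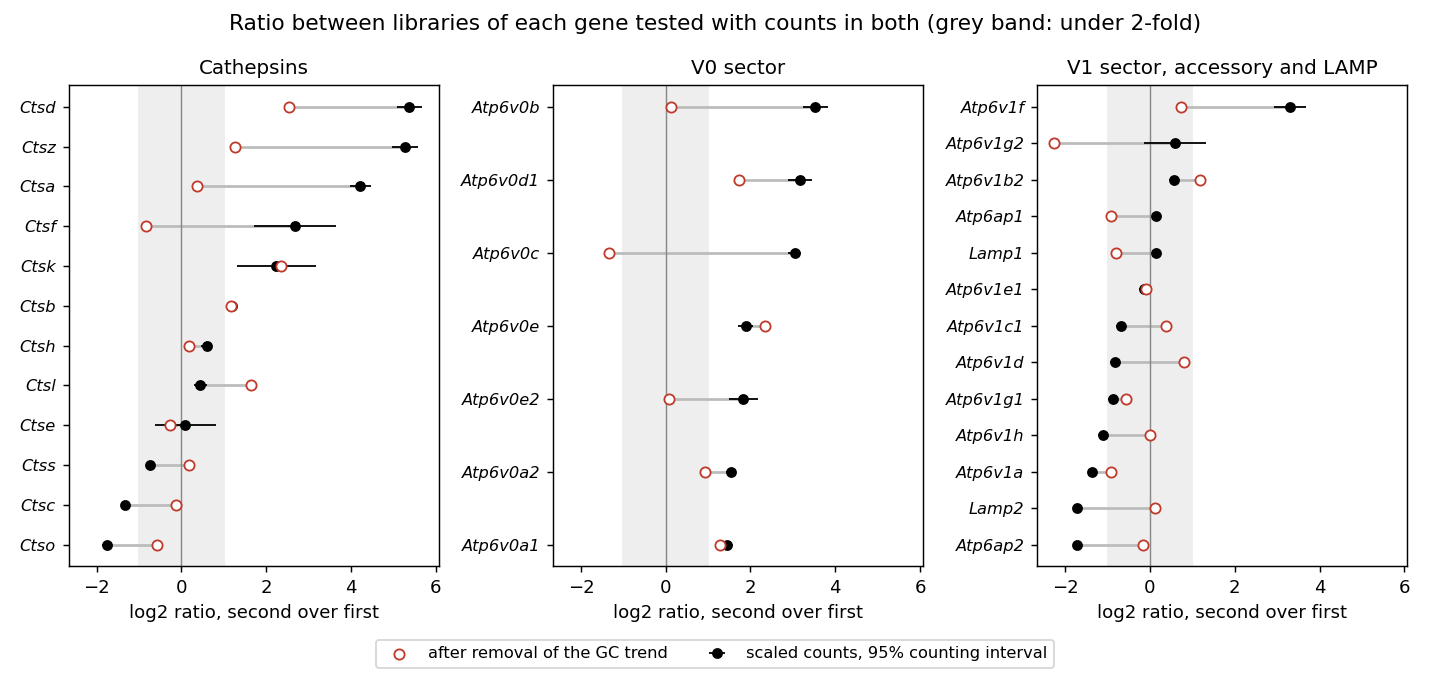
Log2 ratio (second over first library) of 32 genes with counts in both libraries, on scaled counts with 95% counting intervals (black) and after removal of the GC trend (open circles), Ctsw left out. The grey band marks differences under 2-fold. The open circles of Ctsa, Atp6v0b, Lamp2 and Atp6ap2 fall inside the band, while those of Ctsd, Ctsk, Atp6v0e and Atp6v0d1 stay to its right.

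The promoters of these genes were searched for the palindrome TCACGTGA, the core of the element bound by TFEB and its relatives, transcription factors known to drive lysosomal genes. RefSeq promoters (GRCm38.p6, the mm10 assembly) from 250 bases before to 50 bases after a gene's start were matched by symbol for 37 of the 48 genes, with 42 starts. The palindrome, which reads the same on both strands, was in 5 of 42 starts (11.9%), against 0.974% of all 32851 starts and 1.81% of the 8840 starts of genes expressed in this tissue. Its inner 6 bases, CACGTG, were in 9 of 42 starts (21.4%), against 7.15% and 9.51%, and every TCACGTGA contains CACGTG. The 5 genes were Atp6v0d1, Atp6v0e, Atp6v1a, Ctsa and Ctsd. A match describes letters in the window, not a bound site.

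Relative to the RefSeq start used for the search, the palindrome lay wholly upstream in 3 of the 5 genes, and 30 bases with it are shown for these to let their surroundings be compared. Ctsa held another copy just after that start. In the GENCODE annotation each of the 3 genes begins further upstream at another start, so these windows lie inside the annotated gene, and those of Ctsa and Ctsd overlap a 5′ exon of an annotated transcript. The windows are at chr16:44139373-44139402 (Atp6v1a, minus strand), chr2:164833743-164833772 (Ctsa, plus strand) and chr7:142387908-142387937 (Ctsd, minus strand). Capitals mark the palindrome.
Atp6v1a: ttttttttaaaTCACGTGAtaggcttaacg
Ctsa: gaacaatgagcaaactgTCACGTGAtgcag
Ctsd: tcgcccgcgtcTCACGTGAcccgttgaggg
The flanks differed in composition, from 9 G or C of 30 bases in the Atp6v1a window to 21 of 30 in the Ctsd window. The carriers did not move together on scaled counts: Ctsa, Ctsd, Atp6v0d1 and Atp6v0e were higher in the second library and Atp6v1a in the first, with Ctsa and Atp6v1a under 2-fold after removal of the GC trend. TFEB itself was measured at 0.05 and 12.8 TPM (Tfeb, 2 and 434 counts), and without the GC trend its log2 ratio was 1.12 and did not pass the test (adjusted p 0.24). Its relative Tfe3 was at 1.02 and 16.9 TPM, and its log2 ratio of 2.55 became -0.96. The third relative, Mitf, stood at 0.80 and 0.49 TPM and was higher in the first library with and without the GC trend (log2 ratios -1.95 and -1.55).

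In both libraries 20 of the 48 genes reached 10 TPM, of which 11 had several transcripts at 1 TPM or more and 9 had 1. The leading transcript by estimated share differed between the libraries in 4: Lamp2, Atp6v1h, Atp6v0a1 and Ctsh. Atp6v1h-204 held 70.8% of Atp6v1h in the first library and 5.99% in the second, while Atp6v1h-201 held 27.4% and 89.1%. Within the coding sequence, Atp6v1h-204 differs from Atp6v1h-201 only by lacking an exon of 54 bases at chr1:5101070-5101123 on the plus strand, a length that keeps the reading frame. The exon is shown because the isoform call turns on it, and its letters are in lower case throughout.
Atp6v1h exon: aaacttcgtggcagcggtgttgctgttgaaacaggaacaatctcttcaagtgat
The transcripts also differ at their ends, so reads outside this exon enter the estimate.

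For Atp6v0a1 the coding transcript Atp6v0a1-202 was at 0.17 and 27.9 TPM. It held 0.90% of the gene in the first library and 64.05% in the second. The first library was led by Atp6v0a1-208, a processed transcript of 828 bases with no coding annotation (67.4% and 14.5%). Much of the TPM of Atp6v0a1 in the first library therefore did not come from a coding transcript. Ctsh was led by the short coding transcript Ctsh-204 in the first library (55.0% and 18.3%) and by Ctsh-201 in the second (9.75% and 40.7%). The nonsense-mediated decay transcript Ctsh-202 held 2.74% and 36.1%. The deposited intervals of Ctsh-201 (20.3 to 39.1 TPM), Ctsh-202 (19.9 to 38.0) and Ctsh-204 (5.04 to 25.2) overlapped in the second library, so its leading transcript there is not settled. For Ctss, Ctss-202 led in both libraries. The deposited interval of Ctss-201 ran from 2.85 to 60.6 TPM in the first library and from 16.5 to 25.9 in the second. Both transcripts have 1355 bases, with 45.9% GC in Ctss-202 and 45.98% in Ctss-201.

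**Figure D5:**
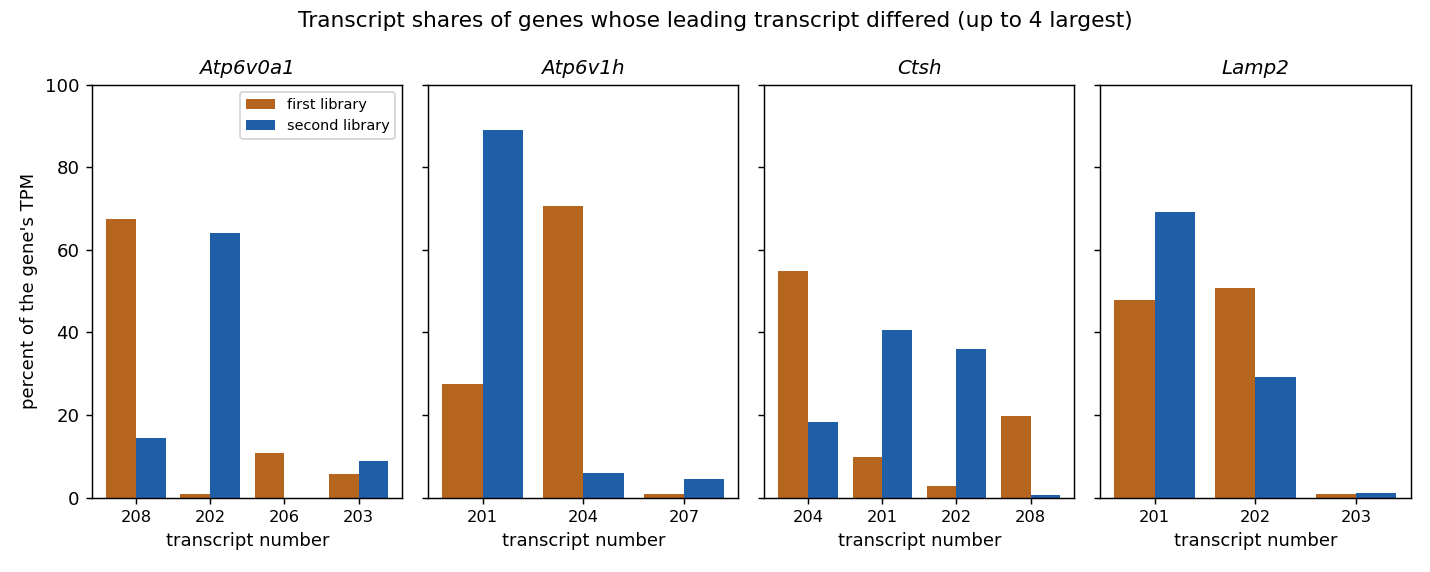
Percent of the gene's TPM held by up to 4 transcripts of the 4 genes whose leading transcript differed, in the first and the second library. The lead passed from Atp6v1h-204 to Atp6v1h-201, from Atp6v0a1-208 to Atp6v0a1-202, from Ctsh-204 to Ctsh-201 and from Lamp2-202 to Lamp2-201.

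Reads of overlapping genes on the opposite strand may enter some counts, since no source used here gives the strand setting of the counting. Ctsz overlaps Nelfcd (35 and 758 counts), Ctsa overlaps Pltp (4 and 271), Ctsw overlaps Fibp (9 and 652) and Ctsb overlaps Fdft1 (132 and 539). Each of these neighbours had more counts in the second library. They are a selection of the overlaps: Slc18a1, which overlaps Atp6v1b2, had 291 and 331 counts. Pdia6 had 650 and 2654, and Atp6v1c2, which it overlaps, had 0 and 1. The part of overlapping genes in the results of Ctsz, Ctsa, Ctsw and Ctsb was not tested.

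Other genes of the lysosomal pathway were read from lists chosen with earlier results known, and each count stands against 40.2% of all genes called in favour of the second library and 27.4% of the first (17.5% and 17.4% without the GC trend). Of 33 lysosomal hydrolases other than cathepsins, all tested, the second library was the higher for 19 and the first for 3 (9 and 4 once the GC trend was taken out). Abundant members were Psap, the precursor of the saposins (10.3 and 309.6 TPM), the fucosidase Fuca1 (20.1 and 228.3) and the lipase Lipa (50.4 and 84.2). Of 16 other lysosomal membrane or associated proteins, the second was the higher for 7 and the first for 3 (7 and 2 without the GC trend). The tetraspanin Cd63 stood at 90.8 and 240.4 TPM, Laptm4a at 132.2 and 135.9, Laptm4b at 24.1 and 52.2 and the calcium channel Mcoln1 at 0.65 and 44.2. Cd68, a LAMP-family protein of macrophages, stood at 0.45 and 10.1 TPM. Both lists thus held genes of high level in each library and genes nearly absent from the first.

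The cathepsins are held in check by cystatins and serpins. Of 10 listed inhibitors 6 were tested, of which 5 were called in favour of the second library and 0 of the first (4 and 1 without the GC trend). The most abundant was Serpinb6a at 260.6 and 352.7 TPM, followed by cystatin C (Cst3, 1.35 and 186.8), cystatin B (Cstb, 6.02 and 70.4) and Cst6 (0.35 and 20.2). Of 10 genes that sort enzymes to lysosomes, the second was the higher for 6 and the first for 1 (2 and 0 without the GC trend). M6pr, a mannose 6-phosphate receptor, stood at 40.4 and 73.8 TPM, Ap1g1 at 49.3 and 43.6, Sort1 at 9.67 and 33.1 and Gga1 at 0.01 and 31.5.

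Of 12 V-ATPase partners outside the symbol rule, the second was the higher for 3 and the first for 6 (1 and 1 without the GC trend). Beside Tcirg1 (0.49 and 39.1 TPM) the most abundant were Oxr1 (21.65 and 12.8), Ncoa7 (17.6 and 10.7) and Tbc1d24 (9.02 and 14.2). Of 14 regulators of lysosomes, the second was the higher for 8 and the first for 2 (3 and 1 without the GC trend). Lamtor2 stood at 0.58 and 134.3 TPM, Rragc at 56.0 and 27.7, Rragd at 33.98 and 41.5 and Lamtor5 at 24.5 and 43.5. Lamtor2 and Lamtor5, partners in the Ragulator scaffold of the lysosome surface, thus had unlike ratios.

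Markers of some immune cells also differed between the libraries, read against 40.2% and 27.4% of all genes in favour of the second and the first (17.5% and 17.4% without the GC trend). The sum of 8 macrophage markers was 12.8 and 243.3 TPM, with 6 in favour of the second library and 1 of the first (5 and 0 without the GC trend). The sum of 6 MHC class II markers was 47.5 and 1236 TPM, with all 6 in favour of the second library, 4 of them also without the GC trend. The sum of 5 osteoclast markers was 1.51 and 152.5 TPM, nearly all of it Acp5 (1.31 and 151.1), which macrophages also express. Other lists did not differ in this way: none of 3 mast cell markers tested was called, and of 4 mature dendritic cell markers 2 were in favour of the second library but 0 without the GC trend, where 1 was in favour of the first. The macrophage and MHC class II lists were higher in the second library, as were Ctsz, Ctsd, Ctsk and Tcirg1, genes known to be abundant in such cells. Ctss, also known from these cells, was not (log2 ratio -0.74), nor was Atp6v0d2 (6 and 4 counts). The part of these cell types in the results was not tested. Within the macrophage list Csf1r stood at 0.52 and 25.4 TPM, Adgre1 at 2.88 and 5.93 TPM without a call (log2 ratio -0.24), and Mrc1, whose transcript is poor in G and C (39.6%), at 7.28 and 4.15 TPM.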

How the data were processed

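Poly(A) RNA of 1 mouse small intestine was measured in 2 technical libraries. Per the file headers, the authors deposited RSEM-format tables of expected counts, TPM, FPKM and isoform percent; per the deposited notes the assembly was mm10 with annotation M4. The sources used here give no aligner, version or strand setting. Symbols, positions and sequences came from GENCODE M21 by identifier, promoters from RefSeq. Expected counts were rounded to whole numbers and tested between the libraries (28277875 and 24509862) by a two-sided exact binomial test on TMM-scaled sizes (edgeR 4.0.16), for genes with 20 or more counts, with Benjamini-Hochberg adjustment over all genes tested. With 1 library a side there were no residual degrees of freedom for a quasi-likelihood fit. Log2 ratios carry 0.5 prior counts. GC content is the mean over a gene's transcripts, and its trend was a lowess fit (span 0.3). Nuclear copies of mitochondrial genes were matched with BLAST 2.17.0 (95% identity over 100 bases). The test was tested on simulated data. Alternatives covered DESeq2 1.42.0 size factors, totals, filters, FPKM and thresholds. The 48 genes and all lists were chosen with earlier results of these data known. Every gene of the rule was accounted for, and up to 4 of highest mean TPM named per pathway list, with Tcirg1, Cd68, Tfeb and Tfe3. Tfeb and Tfe3 and the markers named were chosen after their values were seen. An item chosen by this rule is not reported here.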

Additional observations from a re-analysis of the deposited data

Results flagged for a closer look

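The processed pseudogene Atp6v0c-ps2, which no comparison used, had 0 expected counts in the first library and 11.61 in the second (2.14 TPM), above the 3 counts that a count of 0 allows. It resembles Atp6v0c, which had 337 and 4314 counts.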

How the results depend on the processing

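The main counts of genes called higher in the second and in the first library were 15 and 6. They were 15 and 6 with DESeq2 size factors and without a filter on low counts, and 15 and 5 with totals without mitochondrial genes, where Atp6v1h (-0.90) fell under 2-fold. Without a fold limit they were 20 and 11. Removal of the GC trend gave 10 and 2, with GC content weighted by transcript counts 8 and 1, and with gene length added 10 and 3 (the last 2 fits were chosen after seeing the data). Ratios of TPM gave 21 and 0.

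Removal of the GC trend turned the sign of 11 of the 33 log2 ratios, to -0.27 for Ctse, 0.12 for Lamp2, -0.93 for Atp6ap1, 0.79 for Atp6v1d, 0.39 for Atp6v1c1, -1.33 for Atp6v0c, -2.27 for Atp6v1g2, -0.80 for Lamp1, 0.0105 for Atp6v1h, 0.17 for Ctss and -0.85 for Ctsf. Totals without mitochondrial genes turned Atp6v1e1 to 0.0608. DESeq2 size factors and 5 prior counts turned none of the 33 and left every call as it was. The median log2 ratio of 0.60 ranged from 0.17 to 0.56 under its alternatives.

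The mean TPM share of the 2 libraries was 0.0715% for cathepsins, 0.0772% for V-ATPase and 0.0429% for LAMP genes. With mitochondrial genes left out these were 0.129%, 0.140% and 0.0914%, and on expected counts the LAMP share was 0.0815%. Leaving out each library in turn gave 0.0325% to 0.110%, 0.0356% to 0.119% and 0.0314% to 0.0543%, and 28 to 33 genes detected. Detected genes numbered 29 at 0.5 TPM, 23 at 5 TPM and 31 at 10 counts, against 28. A 5 TPM limit on transcripts left 7 genes with several transcripts in place of 11, and the leading transcript still differed in 4.

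Depth limits the genes with few counts most: the log2 ratios of Ctse, Ctsf, Ctsk and Atp6v1g2 carry counting errors of 0.37 to 0.49, and that of Ctsw, with 0 counts in the first library, 2.04.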
